A study of Mus musculus with 10 samples.

Results

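Dppa2, Dppa4, Dppa5a, Fbxo15 and Utf1 are genes whose activity marks mouse pluripotent cells, and the open chromatin around them was followed along reprogramming. These 5 genes, of 21887 protein-coding genes in the annotation, were taken by name. Every ATAC-seq peak from 20 kb before to 20 kb after each gene was collected, on the build mm10. ATAC-seq uses a transposase to cut accessible DNA, so a peak marks a stretch of open chromatin. Peaks of the 10 libraries that overlapped or touched were merged into 208827 regions, of which 60 lay in the 5 windows.

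The study compared 5 stages with 2 libraries each, made from 50000 cells per library per the labels' protocols. Mouse embryonic fibroblasts (MEF) of the background C57BL/6 x 129 had the genotype OKSM Col1a1/M2rtTA ROSA26 and were kept without doxycycline. The cassette joins Oct4, Klf4, Sox2 and Myc, the factors that reprogram fibroblasts, and doxycycline switches it on through the M2rtTA activator. Cells of the same genotype were collected at day 3, day 6 and day 9 (DAY3, DAY6, DAY9) in ESC medium with doxycycline at 1 ug/ml and ascorbic acid at 50 ug/ml. The embryonic stem cells (ESC) were V6.5, 1 line on the background C57BL/6 x 129, grown with LIF on irradiated feeder cells and without the cassette or doxycycline. DAY6 and DAY9 cells were sorted for SSEA+, a surface marker of early pluripotency, and MEF, DAY3 and ESC cells were unsorted. Sorting therefore cannot be told apart from DAY6 and DAY9, nor the absence of the cassette from ESC. In bulk libraries, fewer cells with an open region and weaker opening in each cell cannot be told apart either. The labels give no age of the embryos and do not say whether replicates came from separate cultures, so the spread between replicates may be technical.

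Reporter genes of this kind are silent in fibroblasts and are switched on when cells approach pluripotency. Fbxo15 encodes an F-box protein, a substrate adaptor of a ubiquitin ligase, and a selection marker in its locus was used in the first derivation of induced pluripotent stem cells. Utf1 is a chromatin-associated protein of undifferentiated cells with an enhancer on the 3′ side of the gene that depends on Oct4 and Sox2. Dppa5a, also called Esg1, is an RNA-binding protein with a KH domain. Dppa2 and Dppa4 are neighbouring genes for SAP-domain DNA-binding proteins that form a complex and act on chromatin in early embryonic and pluripotent cells.

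Of the 5 genes, only Utf1 had an entry in the RefSeq promoter table used here. Its 250 bases before the start are shown because the start of Utf1 was the only start or end of the 5 genes within a region that was open in all 10 libraries. The start of the neighbouring long non-coding RNA gene Gm16201, which lies 6.14 kb from the start of Utf1, is shown beside it because peaks covered at least part of it in all 10 libraries. Both are from RefSeq on GRCm38.p6, on the + strand and 5′ to 3′, Utf1 at chr7:139943606-139943855 and Gm16201 at chr7:139949748-139949997. Capitals mark GGGCGG, the GC box.
Utf1: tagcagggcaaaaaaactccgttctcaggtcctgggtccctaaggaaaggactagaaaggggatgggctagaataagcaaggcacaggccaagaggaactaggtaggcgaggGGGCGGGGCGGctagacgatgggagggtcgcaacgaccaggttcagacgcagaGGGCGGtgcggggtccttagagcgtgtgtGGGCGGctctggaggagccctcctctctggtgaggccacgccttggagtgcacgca
Gm16201: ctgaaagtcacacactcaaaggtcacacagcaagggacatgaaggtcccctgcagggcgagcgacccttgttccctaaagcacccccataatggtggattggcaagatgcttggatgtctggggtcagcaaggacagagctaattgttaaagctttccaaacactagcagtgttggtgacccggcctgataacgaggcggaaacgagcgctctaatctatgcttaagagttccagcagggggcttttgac
The Utf1 stretch was 61.6% G and C, above 75.7% of the 32851 promoters of the table, whose median was 52.4%, and held 14 CpG. It held 4 matches to GGGCGG, of which the first and second overlap by 1 base, and 32.7% of the promoters held at least 1 on either strand. GGGCGG was added to the motif search after the sequence had been read. On both strands there was no match to GGGNGTGG (Klf), ATGCNAAT (octamer), CATTGT (Sox), CACGTG (E-box) or TGANTCA (AP-1), which were found in 15.9%, 2.86%, 10.7%, 6.02% and 6.75% of the promoters. The Gm16201 stretch was 52.0% G and C, held 7 CpG and matched none of the 6 motifs. Peaks covered 116 and 0 of the 250 Utf1 bases in the MEF libraries and 0 and 36 in the DAY3 libraries. All 250 were covered in the DAY6 and DAY9 libraries, and 247 and 250 in the ESC libraries. The open stretch over the start of Utf1 thus reached through all or all but 3 of these bases in every library from DAY6 on and in no MEF or DAY3 library. Of the Gm16201 bases, between 77 (ESC replicate 1) and 238 (MEF replicate 1) were covered in each library.

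The lists held between 45497 (DAY3 replicate 2) and 88980 (ESC replicate 2) peaks. The lists hold no read totals. Depth was therefore read from the background pileup, the fragment depth expected where no peak lies, which the deposited values allow to be recovered. It ran from 2.33 (DAY6 replicate 2) to 8.32 (MEF replicate 2). In DAY3 and DAY9 the summit heights of the replicates differed by little more than counting noise, with a variance 1.33 and 1.42 times that of counting alone at pileups of 100 to 200. These pairs were therefore averaged and counted as 1 sample each, against variances of 5.56 times in MEF, 3.61 in DAY6 and 8.11 in ESC. The stage labels were checked by how many genes of a list had a peak over either end of the gene. For 10 fibroblast genes the count was 8 and 7 in MEF, between 3 and 6 from DAY3 to DAY9, and 4 and 4 in ESC. For 9 pluripotency genes the MEF libraries had 1 and 2 such genes, the DAY3 libraries 2 and 1, the DAY6 libraries 3 and 3, the DAY9 libraries 5 and 7 and the ESC libraries 7 and 6. For 6 epithelial genes it was 0 in every MEF and DAY3 library and between 4 and 6 in every later one. None of 4 blood genes had such a peak in any library, and at most 2 of 4 endothelial and 1 of 4 trophoblast genes did. Lin28a, of the pluripotency list, had none in ESC, and Prrx1 and Postn, of the fibroblast list, had none in MEF. Whether the makeup of the sorted cells or the feeder cells played a part in the results below was not tested.

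In the 5 windows the MEF libraries had 11 and 7 peaks, the DAY3 libraries 6 and 7, the DAY6 libraries 10 and 15, the DAY9 libraries 18 and 19 and the ESC libraries 37 and 40. A gained region has a peak in both ESC libraries and in neither MEF library, and a lost region the reverse. With 2 libraries against 2 the smallest two-sided exact permutation p-value is 0.333, so gained and lost are counts without a test. Of the 60 regions, 21 (35.0%) were gained, where 15.9% of all regions were, and 0 were lost, where 11.1% were. A further 3 regions were open in all 10 libraries, 4 were open in both libraries of DAY6 or DAY9 but in no MEF and no ESC library, and 25 were listed in 1 library only. The shares of all regions in these classes were not computed, so the counts are descriptions only. By first stage with peaks in both libraries, DAY3 came first for 2 of the 21 gained regions, DAY6 for 0, DAY9 for 3 and ESC for 16. These shares of 9.52%, 0%, 14.3% and 76.2% stood beside 8.69%, 14.7%, 15.7% and 60.9% of all gained regions. Where a peak in 1 library was enough, DAY3 came first for 2, DAY6 for 2, DAY9 for 3 and ESC for 14, beside 13.9%, 22.3%, 14.2% and 49.6% of all gained regions. The 16 late regions were spread over all 5 windows, while the 5 earlier ones lay near Fbxo15 and Dppa5a alone.

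**Figure D1:**
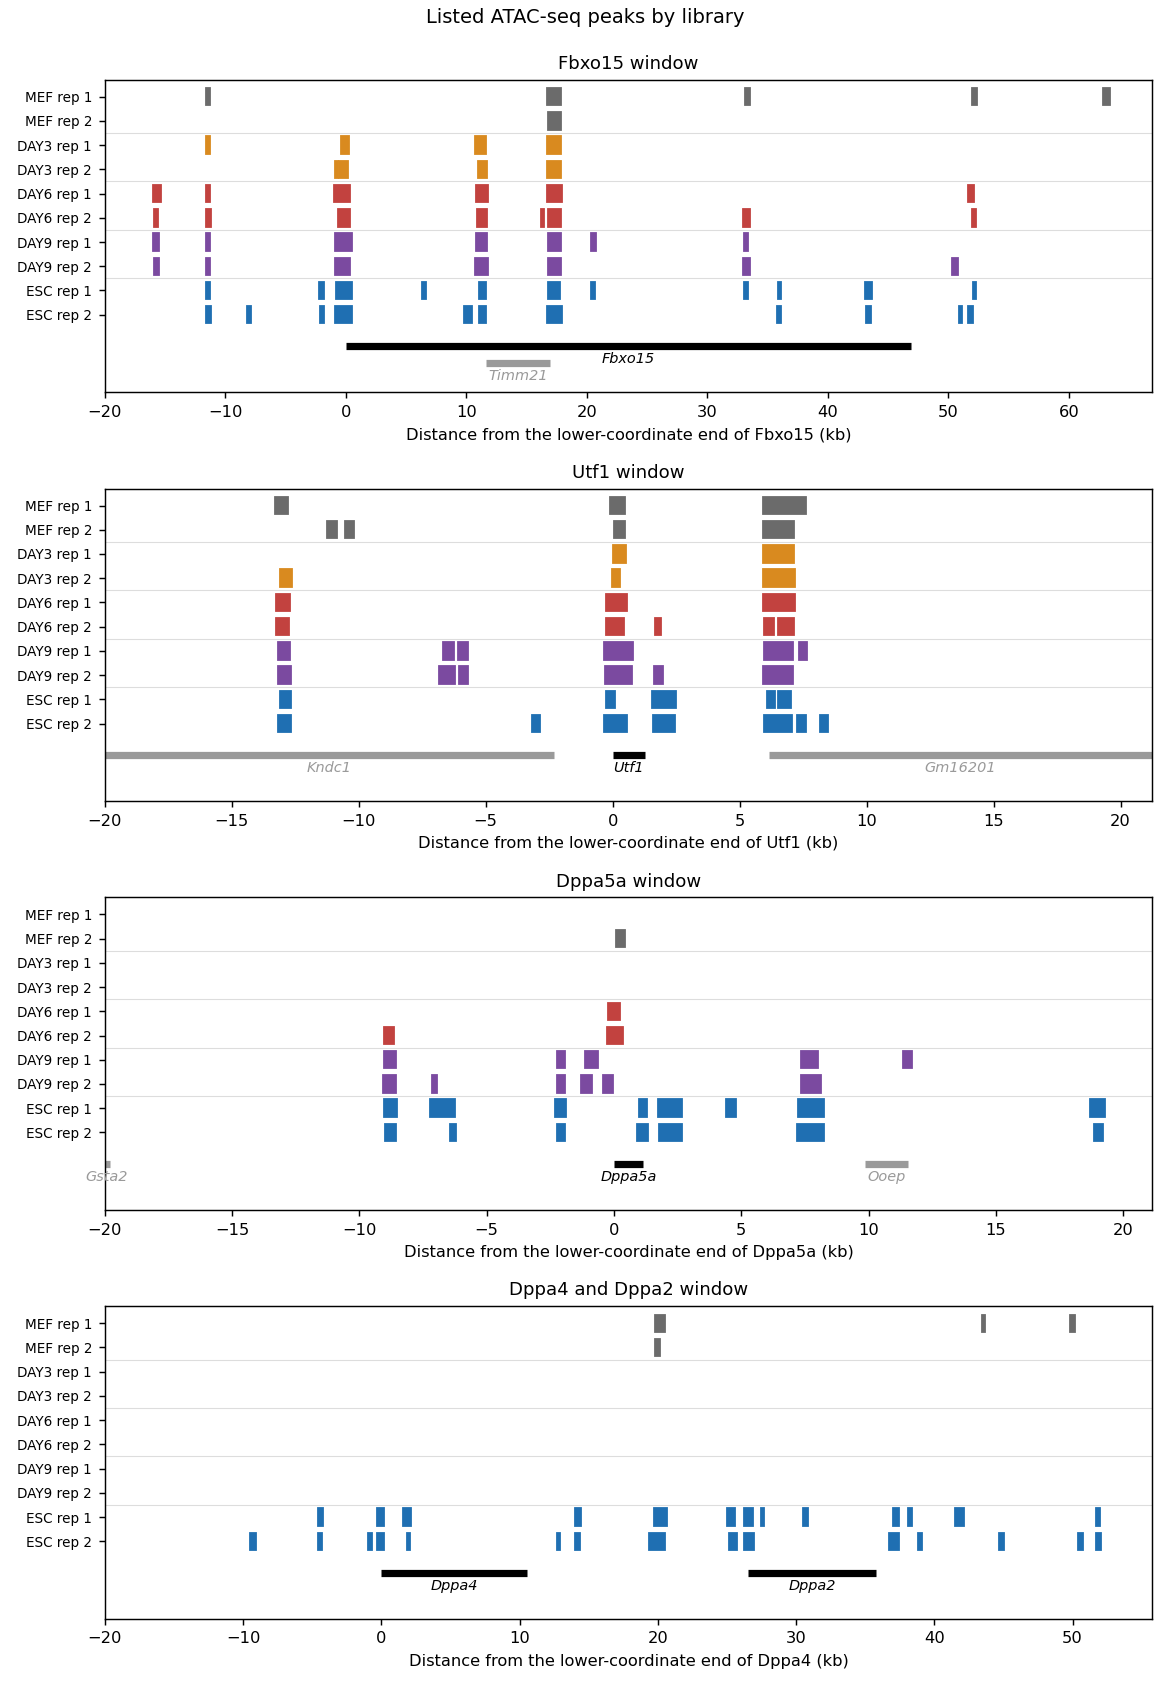
Peaks (coloured blocks) of each library (rows) along the 4 loci, against the distance in kb from the lower-coordinate end of the gene, with the 5 genes in black and neighbouring genes in grey. The Dppa4 and Dppa2 rows are empty from DAY3 to DAY9, whereas the Fbxo15 rows hold a peak at the lower end of the gene in all 8 libraries from DAY3 on.

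The genes differed in the stage at which a region without a MEF peak was first open in both libraries. It was DAY3 for Fbxo15, DAY9 for Dppa5a and Utf1, and ESC for Dppa2 and Dppa4. Of the 20708 genes with a region in their window, the first such stage was DAY3 for 31.9%, DAY6 for 18.6%, DAY9 for 18.8% and ESC for 11.6%, and 19.2% had none. Peaks in 1 library alone placed Dppa5a and Utf1 at DAY6 and moved none of the other 3 genes. The order at the ends of the genes was similar. A peak over either end was first present in both libraries at DAY3 for Fbxo15, at DAY6 for Dppa5a and Utf1, and in ESC for Dppa2 and Dppa4. Among 21887 genes the shares were 45.4% for MEF, 3.26% for DAY3, 3.26% for DAY6, 2.80% for DAY9, 2.04% for ESC and 43.2% for no stage. For Utf1 that stage depended on the end base being inside the peak: with 1 kb allowed on each side its start was open in MEF already. The places of Dppa5a and Utf1 depended on single libraries, as described for each gene, and on list length. With lists of equal length, or the upper 50% of each list, the first region of Dppa5a was in ESC, level with Dppa2 and Dppa4. That of Utf1 was at DAY6 with lists of equal length. At gene ends, both settings placed Dppa5a in ESC and left Dppa4 open at no stage. The upper 50% also moved the gene end of Utf1 to DAY9.

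**Figure D2:**
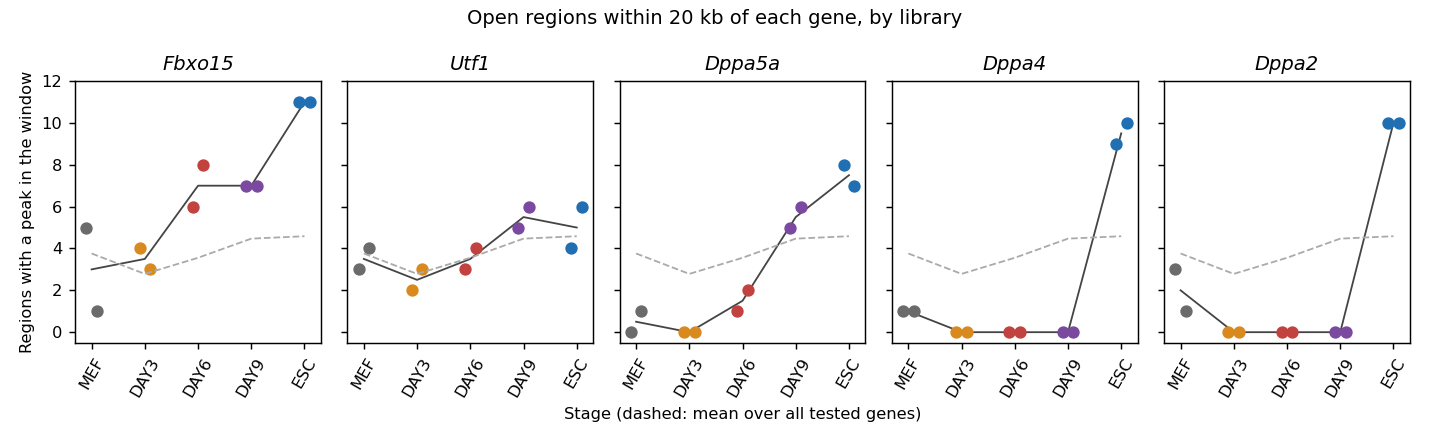
Number of regions with a peak in the window of each gene (vertical axis) by stage, with 1 point per library, a solid line through the stage means and a dashed line for the mean over all 20708 tested genes. Fbxo15 and Dppa5a increase over several stages, Utf1 stays near the mean of all genes, and Dppa4 and Dppa2 go from 0 at DAY9 to between 9 and 10 in ESC.

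Fbxo15 was the first of the 5 to gain an open element. The gene lies at chr18:84934552-84981476, and its window of 86.9 kb holds 18 regions and, within the gene, the gene Timm21, a subunit of the import machinery of mitochondria. In this window the MEF libraries had 5 and 1 open regions, the DAY3 libraries 4 and 3, the DAY6 libraries 6 and 8, the DAY9 libraries 7 and 7 and the ESC libraries 11 and 11. MEF and DAY3 overlapped, as did DAY6 and DAY9, and DAY6 lay above DAY3 and ESC above all other stages. As means, MEF had 3.0 ± 2.8 (SD, n = 2), DAY3 3.5, DAY6 7.0 ± 1.4 (SD, n = 2), DAY9 7.0 and ESC 11 ± 0 (SD, n = 2), where DAY3 and DAY9, each counted as 1 sample, have no SD.

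The earliest elements of Fbxo15 were both at ends of genes. A region over the lower-coordinate end of Fbxo15, chr18:84933556-84935096, had no MEF peak and was present in all 8 later libraries. The fold enrichment of a peak is the authors' ratio of its summit to its local background and describes the peak within its own list only. At this end the DAY3 peaks had folds of 9.22 and 9.14, the DAY6 peaks 11.7 and 10.8, the DAY9 peaks 11.2 and 11.8, and the ESC peaks 9.29 and 8.12. By the authors' score the peak stood above 83.9% and 82.0% of its list in DAY3 and above 97.0% and 97.8% in ESC. It was thus among the higher-scoring peaks of its list as soon as it appeared. The other DAY3 region, chr18:84945291-84946383, lies inside Fbxo15 over the lower end of Timm21 and had folds of 5.37 and 6.45 in DAY3 and of 5.85 and 3.79 in ESC. The opposite end of Timm21 was in a region open in all 10 libraries, MEF included, with folds from 9.11 (ESC replicate 2) to 16.3 (MEF replicate 1). Open regions inside Fbxo15 could therefore belong to either gene, and which gene they serve was not tested.

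A region 15.7 kb below Fbxo15, chr18:84918519-84919181, was open in both DAY6 and both DAY9 libraries, with folds of 9.76, 3.91, 3.84 and 3.82, and in no MEF, DAY3 or ESC library. The remaining gained regions of Fbxo15 opened in ESC alone. They were chr18:84932351-84932761, centred 2.00 kb below the gene, and 2 regions inside it, chr18:84970331-84970691 and chr18:84977646-84978210. The last of these had folds of 9.44 and 3.89 in the ESC libraries. With 5 gained regions Fbxo15 matched Dppa2, and 5.67% of all tested genes had at least as many. The count for Fbxo15 was 8 without ESC replicate 1, where a peak in ESC replicate 2 was enough, and 3 with lists of equal length.

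Dppa5a had 7 gained regions, with 3 first listed in both libraries at DAY9 and 4 in ESC. The gene, chr9:78367052-78368199, is only 1148 bp long, and its window of 41.1 kb holds 11 regions, the neighbour Ooep, an oocyte-expressed KH-domain gene, and the end of the glutathione transferase gene Gsta2. Around Dppa5a the MEF libraries had 0 and 1 open regions, the DAY3 libraries 0 and 0, the DAY6 libraries 1 and 2, the DAY9 libraries 5 and 6 and the ESC libraries 8 and 7. DAY9 lay above all libraries of DAY6 and below both ESC libraries, while MEF and DAY6 overlapped at 1 region. The MEF mean was 0.50 ± 0.71 (SD, n = 2), that of DAY3 0, that of DAY6 1.5 ± 0.71 (SD, n = 2), that of DAY9 5.5 and that of ESC 7.5 ± 0.71 (SD, n = 2). Of its 11 regions 7 were gained, a number reached by 2.29% of all tested genes. It was the highest count of the 5 genes here, but not without ESC replicate 1, where Dppa2 and Dppa4 had 9 each, Fbxo15 8 and Dppa5a 7, nor without ESC replicate 2, where Dppa2 had 9 and Dppa5a 8. With an ESC library left out, a peak in the other one was enough, so these counts could not fall.

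Among the gained regions of Dppa5a, 3 were open in both DAY9 libraries. The one 8.80 kb below the gene, chr9:78357986-78358517, also had a DAY6 peak in replicate 2, with folds of 4.21 there, 4.56 and 4.18 in DAY9, and 6.67 and 4.62 in ESC. The regions chr9:78364723-78365175, centred 2.1 kb below the gene, and chr9:78374223-78375318, centred 7.72 kb above its lower end, had DAY9 folds between 2.99 and 3.12 and ESC folds between 3.55 and 5.43. At the background pileup of the DAY6 lists a peak had to reach a fold of 3.37 and 3.60 to be listed. The DAY9 folds of these regions lay below that, so the lists do not show that they were closed at DAY6. Another region, chr9:78359807-78360832, had a DAY9 peak in replicate 2 alone, with a fold of 2.63, and ESC folds of 2.58 and 2.3. Its ESC peaks stood above 9.77% and 8.57% of their lists. The peaks of DAY9 replicate 2 and ESC replicate 2 did not overlap and were joined by that of ESC replicate 1. With 50% coverage of a region, Dppa5a had 6 gained regions. The remaining 3 were open in ESC only, at chr9:78367945-78368383 over the higher-coordinate end of the gene, chr9:78368784-78369727 and chr9:78385728-78386341.

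The end of Dppa5a that had listed peaks differed between stages. The region over the lower-coordinate end, chr9:78366616-78367497, had peaks in MEF replicate 2, both DAY6 libraries and DAY9 replicate 2, with folds of 2.79, 4.94, 3.61 and 2.75, and in no ESC library. Its DAY6 peaks stood above 41.7% and 5.03% of their lists, and those of MEF and DAY9 above 17.3% and 7.19%. Only the DAY6 peaks covered the end base, as the MEF peak began inside the gene and the DAY9 peak ended below the gene. The higher-coordinate end had peaks in the ESC libraries alone, with folds of 3.32 and 3.93, above 59.5% and 80.9% of their lists. The lower of these folds was under both DAY6 limits of 3.37 and 3.60, so the lists do not show that this end was closed at DAY6. With lists of equal length, or the upper 50% of each list, the first gene-end stage of Dppa5a was ESC. The gene table used here gives no strand for Dppa5a, so which end is the start is not stated. A region next to the gene, chr9:78365757-78366428, was open in the DAY9 libraries only, with folds of 3.00 and 3.34. Accessible DNA at the gene itself was therefore listed in both libraries of a stage at DAY6 and in ESC but, over its ends, not at DAY9.

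Utf1 differed from the others in that the region over its start had a peak in both MEF libraries. The gene, chr7:139943856-139945112, lies between Kndc1, a guanine nucleotide exchange factor gene, and Gm16201, and the microRNA genes Mir7686 and Mir202 also lie in its window of 41.3 kb with 10 regions. The start region, chr7:139943505-139944650, was listed in all 10 libraries. Its MEF folds were 5.92 and 5.58, its DAY3 folds 3.01 and 3.51, its DAY6 folds 4.98 and 7.68, its DAY9 folds 11.2 and 8.66, and its ESC folds 3.18 and 5.21. The MEF peaks there were 617 and 403 bp wide, the DAY3 peaks 505 and 342 bp, the DAY6 peaks 832 and 718 bp, the DAY9 peaks 1146 and 1069 bp, and the ESC peaks 344 and 901 bp. Both DAY9 peaks were wider and had a higher fold than the peaks of all 8 other libraries. Below them, both DAY6 peaks were wider than all MEF and DAY3 peaks, and both DAY3 folds were lower than all MEF and DAY6 folds, while the ESC values overlapped those of MEF, DAY3 and DAY6 in width and those of DAY3 and DAY6 in fold. These widths and folds come from lists of unlike depth, with background pileups from 2.33 to 8.32. Whether depth played a part in their order was not tested. Genes with a peak over an end in all 10 libraries made up 40.9% of the annotation. Utf1 was not among them, since the MEF replicate 2 and DAY3 replicate 1 peaks began inside the gene.

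In the whole Utf1 window the MEF libraries had 3 and 4 open regions, the DAY3 libraries 2 and 3, the DAY6 libraries 3 and 4, the DAY9 libraries 5 and 6 and the ESC libraries 4 and 6. The mean was lowest at DAY3 with 2.5, followed by 3.5 ± 0.71 (SD, n = 2) for both DAY6 and MEF, 5.0 ± 1.4 (SD, n = 2) for ESC and 5.5 for DAY9. Neighbours in the order DAY3, DAY6, MEF, ESC and DAY9 overlapped, so no step of that order was larger than the spread between libraries. The mean over all genes followed a similar course, from 4.02 and 3.5 regions in the MEF libraries through 2.79 and 2.78 at DAY3 to 4.65 and 4.52 in the ESC libraries. The single gained region of Utf1 was chr7:139945424-139946333, just beyond the 3′ end of the gene and centred 2.02 kb from its start. Without ESC replicate 1, where a peak in ESC replicate 2 was enough, the count was 3. Without MEF replicate 1, where only absence from MEF replicate 2 was needed, it was 2. The folds of this region were 8.47 and 4.08 in ESC, above 88.7% and 76.2% of the peaks of their lists. DAY6 replicate 2 and DAY9 replicate 2 also had a peak there, with folds of 2.84 and 2.91, and the other 6 libraries had none. Its presence before ESC thus rested on 1 library of each stage. Whether it is the 3′ enhancer named above was not tested.

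The DAY9 regions that gave Utf1 its place in the order lie inside Kndc1. They were chr7:139937032-139937634 and chr7:139937767-139938155, open in both DAY9 libraries with folds of 6.60 and 6.88, and of 2.83 and 2.97, and in no other library. They were absent from ESC, so the place of Utf1 at DAY9 does not rest on a region listed in ESC. At the background pileup of the DAY6 lists a peak had to reach a fold of 3.37 and 3.60. Both folds of chr7:139937767-139938155 lay below these limits, and both of chr7:139937032-139937634 lay above them. The region over the start of Gm16201, chr7:139949760-139951494, was open in all 10 libraries with folds between 3.87 (ESC replicate 2) and 7.66 (MEF replicate 1).

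**Figure D3:**
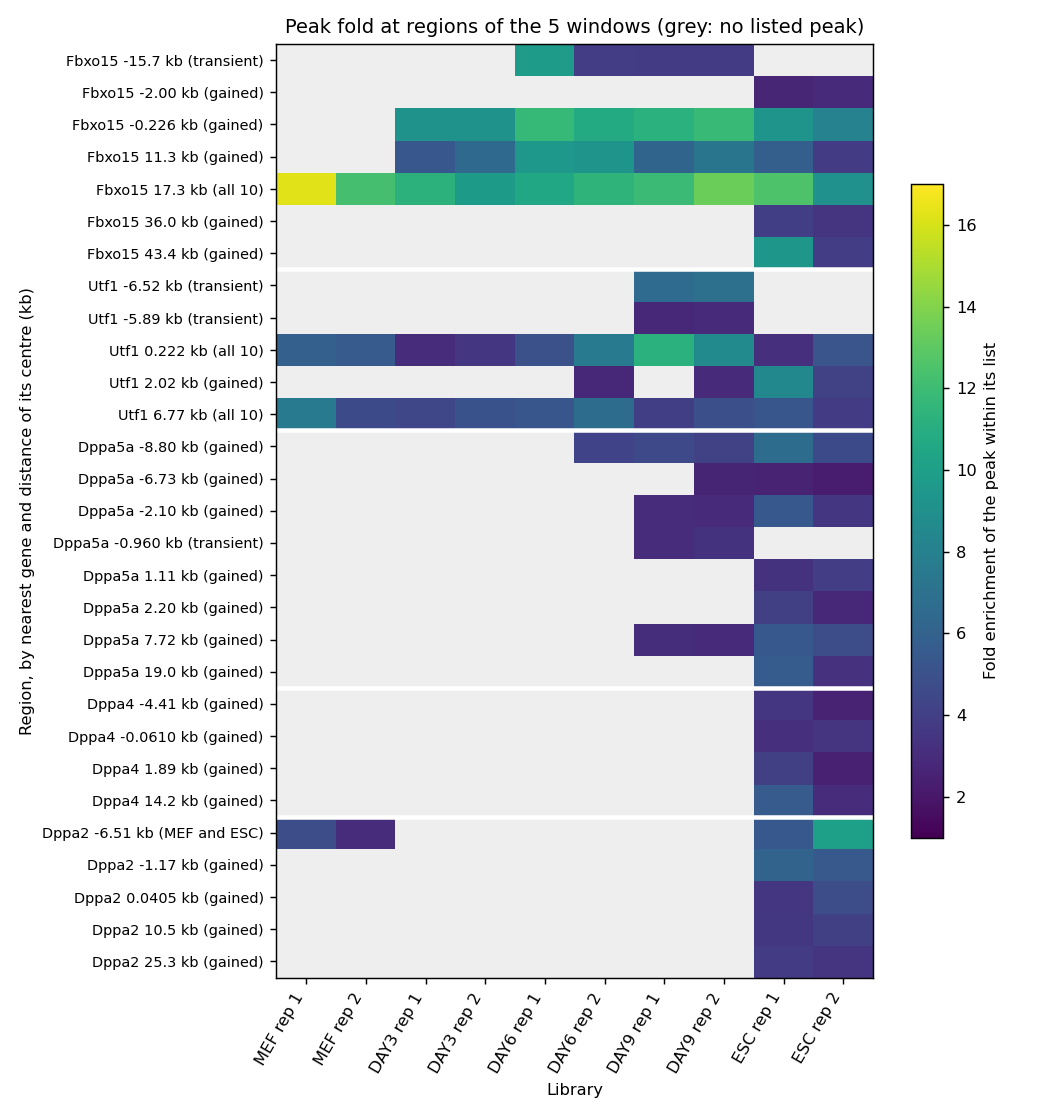
Fold enrichment (colour) of the peak at the gained, transient and constant regions of the 5 windows (rows, by nearest gene and distance of the centre from its lower-coordinate end in kb) in each of the 10 libraries (columns), with grey where no peak was listed. Folds describe peaks within their own list; the lower-end region of Fbxo15 is filled from DAY3 on, and every Dppa4 and Dppa2 row is grey from DAY3 to DAY9.

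Dppa2 and Dppa4 stood apart in having no peak at all between DAY3 and DAY9. Dppa4, chr16:48283735-48294292, and Dppa2, chr16:48310274-48319513, are the only genes in each other's windows, which overlap and share 7 of their 21 regions, so they are not independent. The Dppa2 window held 3 and 1 open regions in MEF, 0 in all 6 libraries from DAY3 to DAY9, and 10 and 10 in ESC. The Dppa4 window held 1 and 1 in MEF, 0 in the same 6 libraries, and 9 and 10 in ESC. Both ESC libraries lay above all 8 others for each gene. The ESC means were 10.0 ± 0 (SD, n = 2) for Dppa2 and 9.5 ± 0.71 (SD, n = 2) for Dppa4, or 2.03 and 1.88 regions per 10 kb, beside 1.82 for Dppa5a, 1.27 for Fbxo15 and 1.21 for Utf1. In ESC replicate 1 the count of Dppa2 exceeded that of 92.9% of all tested genes.

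Together the 2 windows held 8 gained regions, 5 for Dppa2 and 6 for Dppa4 with 3 in both, and all 8 were first open in ESC. In the windows of the other 3 genes, 8 of 13 gained regions (61.5%) were. Of all 20708 genes, 5.96% had no open region in any library from DAY3 to DAY9, and 2.56% also had a gained region. Dppa4 was the only gene among these with 6 or more gained regions, 0.00483% of the genes. That criterion was chosen after the counts of Dppa4 were seen.

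The gained regions of this locus covered both genes and the DNA between and around them. Over the lower-coordinate end of Dppa4, chr16:48283423-48283925, the ESC folds were 3.22 and 3.39, and over that of Dppa2, chr16:48309970-48310659, they were 3.55 and 4.78. The highest folds of the 8 were at chr16:48308762-48309446, 1.17 kb below Dppa2, with 6.10 and 5.44, above 80.7% and 87.4% of the peaks of their lists. The others were chr16:48279165-48279486 below Dppa4, chr16:48285329-48285919 inside it, chr16:48297727-48298193 between the genes, and chr16:48320472-48321163 and chr16:48335424-48335760 beyond Dppa2. One region between the genes, chr16:48303130-48304402, 6.51 kb below Dppa2, was open in both MEF and both ESC libraries, with folds of 4.76 and 3.00, and of 5.38 and 10.0. It had no peak from DAY3 to DAY9, so it was listed before induction and in ESC but at no stage between.

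The depth of the lists limits how an absent peak can be read. At the background pileup of the DAY9 lists a peak had to reach a fold of 2.64 and 2.63 to be listed, and 6 of the 8 regions exceeded this in both ESC libraries. At the DAY3 limits of 3.02 and 3.03 it was 5 of 8. For DAY6 the limits were 3.37 and 3.60, which 4 and 1 of the 8 exceeded in both ESC libraries and 8 and 6 in at least 1. At the background pileup, peaks as high as those of ESC would thus have been listed at most of these regions in DAY9. Peaks below a limit were listed too, as the local background of a region can differ. In ESC replicate 1, with a limit of 3.35, the peak over the lower-coordinate end of Dppa4 had a fold of 3.22. The limits are therefore a guide only for single regions. For DAY6 replicate 2 the answer depends on which ESC library is taken, so the lists do not show that the locus was closed at DAY6. The same holds for absence in MEF, on which every gained call rests. Its limits were 3.39 and 2.58, which 4 and 6 of the 8 exceeded in both ESC libraries. The gained regions chr9:78359807-78360832 of Dppa5a and chr18:84932351-84932761 of Fbxo15 had both ESC folds below 3.39.

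**Figure D4:**
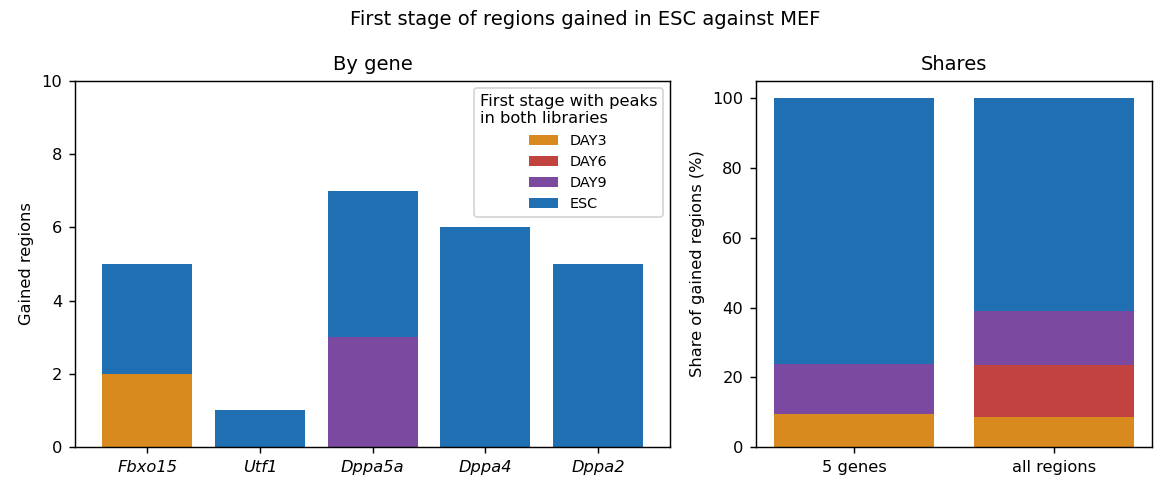
Left, the number of gained regions (vertical axis) in the window of each gene, coloured by the first stage with peaks in both libraries; the bars of Dppa4 and Dppa2 share 3 regions. Right, the same stages as a share (%) of the 21 gained regions of the 5 windows and of all 33273 gained regions, with ESC at 76.2% and 60.9%.

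The number of open regions per window was tested for a trend over the ordered stages by an exact permutation test of Jonckheere-Terpstra type, two-sided, over the 8 samples, run on all 20708 genes with Benjamini-Hochberg adjustment. The trend index runs from -1 for a fall at every step to 1 for a rise at every step. It was 0.840 for Dppa5a (exact p = 0.00437, adjusted p = 0.101), 0.840 for Fbxo15 (exact p = 0.00516, adjusted p = 0.105) and 0.520 for Utf1 (exact p = 0.107, adjusted p = 0.318). For Dppa2 and Dppa4 it was 0.160 (exact p = 0.662, adjusted p = 0.840 for each), with counts of 0 from DAY3 to DAY9 below those of MEF and counts above them in ESC. None of the 5 genes passed the threshold of 0.05, and 0% of all genes did. The smallest adjusted p over all genes in this exact test was 0.0830, and 4215 genes had an unadjusted p under 0.05, 18.2% of all genes upward and 2.15% downward. The median index over all genes was 0.280.

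Other measures changed the call for Fbxo15 and Dppa5a. By base pairs under peaks, Fbxo15 rose along the stages, with an index of 1.00 (exact permutation test, adjusted p = 0.0384), a call made upward for 0.942% of genes. MEF had 1922 ± 1242 base pairs (SD, n = 2), DAY3 2920, DAY6 4884 ± 287 (SD, n = 2), DAY9 5143 and ESC 6109 ± 430 (SD, n = 2). The order was complete only with the DAY9 libraries averaged, since DAY9 replicate 1 had 5035 base pairs and DAY6 replicate 1 had 5087. Dppa5a had an index of 0.880 on that measure (exact permutation test, adjusted p = 0.0623). Base pairs were not scaled for list size. Whole lists covered 43.6 and 33.1 Mb in MEF and 27.7 and 27.7 Mb in DAY3. They covered 39.3 and 33.6 Mb in DAY6, 45.5 and 45.8 Mb in DAY9 and 48.3 and 53.0 Mb in ESC. Lists of equal length were tested by region count only, where Fbxo15 had an index of 0.720 (exact permutation test, adjusted p = 0.208). With 10 separate libraries the adjusted p of the exact test was 0.0351 for Dppa5a and 0.0371 for Fbxo15, in a count that treats the near-identical DAY3 and DAY9 pairs as replicates and calls 6.25% of all genes upward. With the replicate number as a block on the same 10 libraries both calls were lost (exact permutation test, adjusted p = 0.0710 and 0.0911), and 0% of all genes were called.

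**Figure D5:**
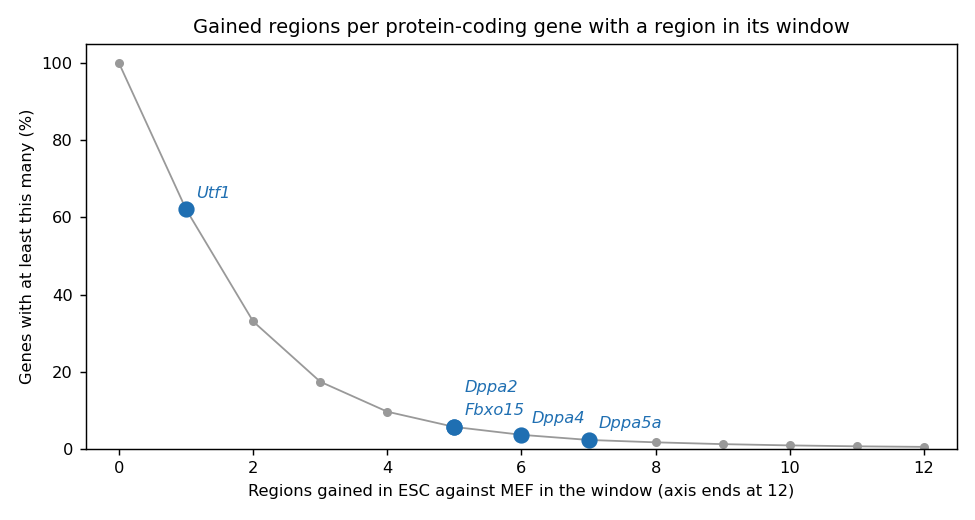
Share of tested genes (%, vertical axis) with at least a given number of gained regions in the window (horizontal axis), with the 5 genes marked in blue. Dppa5a, with 7 gained regions, lies at 2.29%, Dppa4 at 3.62%, Fbxo15 and Dppa2 at 5.67%, and Utf1, with 1, at 62.1%.

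Most of the 5 genes had more gained regions than most genes. At least 1 gained region was present for all 5, as for 62.1% of tested genes, and no lost region for any, where 44.7% had at least 1. Other genes of the pluripotency programme were taken from a list of 16, all of which were found. Like the 5 genes, that list was chosen with earlier results of these data known, so the shares are descriptions only. None of these 16 passed the adjusted threshold in the exact trend test and 15 had an unadjusted p under 0.05, against 4215 of 20708 genes. Their median index was 0.800 and their median number of gained regions 4.00, beside 0.280 and 1.00 over all genes. For 7 of them the first region without MEF peaks appeared at DAY3, for 7 at DAY6, for 2 at DAY9 and for 0 in ESC. Among the 16, Nanog, a core pluripotency factor, had its first such region at DAY9 with 4 gained regions, as late as Dppa5a and Utf1. L1td1, an RNA-binding protein gene, had a peak over a gene end from DAY3 on, as Fbxo15 did. Esrrb, a nuclear receptor gene of the naive state, had 13 gained regions, more than any of the 5. By this measure no gene of the list came as late as Dppa2 and Dppa4, but at gene ends Gdf3 and Tcl1 were first open in ESC too, and 6 of the 16 were open at no stage. Whether the lists differ was not tested.

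The genes whose base pairs under peaks followed each gene most closely over the 8 samples were found by Pearson's r among 20695 genes outside the windows, as a description without a p-value. For Dppa2 they were Gabra3 (0.9987), Olfr1323 (0.9977) and Smarca1 (0.9959), and for Dppa4 they were Zfp865 (0.9990), Lipo3 (0.9962) and Zfp784 (0.9949). For Dppa5a they were BC048679 (0.9937), Lef1 (0.9919) and Dnase1 (0.9914), and for Fbxo15 they were Mbtps2 (0.9914), Rundc3a (0.9894) and Slc35f1 (0.9862). For Utf1 they were Fgf15 (0.9911), Fam181b (0.9869) and E030030I06Rik (0.9853). The closest gene to Dppa2, Gabra3, had 979 and 338 base pairs under peaks in MEF, 0 in all 6 libraries from DAY3 to DAY9, and 3015 and 3072 in ESC. The closest to Dppa4, Zfp865, was open at all stages, from 3788 base pairs in DAY3 replicate 2 to 7094 in ESC replicate 2. A high r here thus did not always go with an absence before ESC. All such values share library depth and list length across genes.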

How the data were processed

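ATAC-seq peak lists of 10 mouse libraries, 2 at each of 5 stages, were analysed. The members and lists were chosen with earlier results of these data known. Per the submitters' processing notes, the tools were Bowtie2 2.3.2, MACS2 2.1.1 and deepTools 2.3.6 and the build mm10; filters, duplicate handling and transposase offset are not given in the sources used here. The authors deposited 1 list per library, not pooled, without a header. Its score is 10 times the deposited −log10 p rounded down, its fold enrichment a linear ratio of summit to local background by the authors, and its −log10 p- and q-values, with no −log10 p under 5, are the authors' own.

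Peaks that overlapped or touched were merged, and a library had a region if 1 bp or more of a peak lay in it. Whole summit pileups were recovered from fold and −log10 p (tolerance 0.01, where −log10 p was at most 300) and gave the background pileup and the noise between replicates. Genes came from the RefSeq table of GRCm38.p6, which gives no strand, so a peak over either end of a gene stood in for the planned peak over its start. Exons, introns and untranslated regions were not analysed here. The text names the 5 genes, all genes in their windows, 16 further pluripotency genes, the 3 genes most like each, and the gained, start and transient regions. The trend test (5040 arrangements of the samples, smallest p 3.97e-04) was tested on simulated data. Python 3.11.15, numpy 2.4.6, pandas 2.3.3 and scipy 1.17.1 were used. Alternatives were base pairs, 10 libraries, the replicate block, shorter lists, 50% coverage and windows of 10 kb and 50 kb. Others were a peak in at least 1 library of a stage, wider ends and each library left out.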

Additional observations from a re-analysis of the deposited data

How the results depend on the processing

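Fbxo15 had its first new region at DAY3, and Dppa2 and Dppa4 theirs in ESC, under every alternative run for that order. Dppa5a moved to ESC, level with them, with lists of equal length and with the upper 50% of each list, and to DAY6 under 5 other alternatives. By base pairs the Fbxo15 index was 1.00, and with 10 separate libraries it was 0.825 for Dppa5a and 0.800 for Fbxo15, all 3 past the threshold, the last 2 not with the replicate block. With lists of equal length (45497 peaks), 13 regions were gained, 3 of them before ESC, and both orders were unchanged for 3 of 5 genes; with the upper 50% of each list, 13 were gained, 3 before ESC, and the gene-end order was unchanged for 2 genes. With 50 kb windows, 2 regions were lost, 9 gained regions opened before ESC and the order held for 3 genes. With a peak in at least 1 library, 39 were gained, 6 lost and 8 open before ESC, and the order held for 3 genes.

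Leaving out each library in turn gave 21 to 32 gained regions (32 without ESC replicate 1), 0 to 3 lost (3 without MEF replicate 1 or 2) and 5 to 8 open before ESC (8 without MEF replicate 1). The remaining library of that stage then decided alone, which is a looser rule. These counts could therefore only stay the same or rise, so they do not measure stability in both directions. The order held for 3 to 5 genes (3 without DAY6 replicate 1, where Dppa5a and Utf1 moved to DAY6) and the gene-end order for 4 to 5. The index was -0.105 to 0.316 for Dppa2 and for Dppa4, negative without ESC replicate 1 or 2, 0.789 to 0.947 for Dppa5a, 0.789 to 0.895 for Fbxo15 and 0.368 to 0.684 for Utf1. Gained regions by gene reached 9 for Dppa2 and Dppa4, 8 for Fbxo15 and 3 for Utf1 without ESC replicate 1. Where a peak in at least 1 library of a stage was enough, they were 13 for Dppa2, 11 for Dppa4 and 10 for Fbxo15. Dppa5a then had 8 and Utf1 3. With lists of equal length the counts were 3, 3, 3, 5 and 2 in that order. Some of these settings used fewer peaks or libraries and some a looser rule. The cause of the differences was not tested.

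Same-numbered libraries did not deviate together (correlations of -0.0389 to 0.0295 over 10 pairs), so these values show no pairing by number. Whether same-numbered libraries shared a culture or batch was not tested. The replicate block gave 0.100 for Dppa2 and Dppa4 (adjusted p = 0.972 in the exact permutation test), 0.850 for Dppa5a (0.0710), 0.800 for Fbxo15 (0.0911) and 0.550 for Utf1 (0.252), which ended the calls made for Dppa5a and Fbxo15 on 10 libraries without it and left the calls on 8 samples as they were. Counts of regions do not use it. The 50% coverage rule was not run for gene ends, which are scored on peaks. Background pileups of 2.33 to 8.32 limit which peaks could be listed, most in DAY6 replicate 2.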
